A study of Mus musculus with 8 samples.

Results

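Collagens are triple-helical proteins of the extracellular matrix, and the genes followed here are all protein-coding genes of the count table whose symbol reads Col, a number, the letter a and a number. The table held 44 such genes of 54532, and each was taken by its name alone. The collagen genes as a subject were chosen with earlier results of these data known. After removal of genes with low counts, 40 of the 44 were among the 15470 genes tested. The cells were wild-type mouse embryonic fibroblasts, a primary culture of connective tissue cells grown from embryos. They were sequenced at day 4 in 4 media with 2 libraries each. CFAE+8+MSC held 6 agents: CHIR99021, which inhibits the kinase GSK-3; Forskolin, which raises cyclic AMP; AM580, which activates a retinoic acid receptor; the compound labelled EPZ04777; A-83-01, which blocks the TGF-beta type I receptor; and MSC2530818, which inhibits the kinases CDK8 and CDK19. CFAE+6 held the first 4 of these with E-616452, another blocker of the TGF-beta type I receptor. CFAE+8 held the same 4 with A-83-01. The control group, MEF, was kept in plain fibroblast medium. No dose or passage number is stated in the labels, nor the base medium of the cocktails. Nothing in them ties the 2 libraries of a medium to separate cultures or embryos, so the p-values reflect the spread between these libraries alone, and that spread may be technical.

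Collagen chains assemble in groups of 3 inside the cell, are hydroxylated and folded there, and are trimmed and crosslinked after secretion. Fibrillar collagens build the load-bearing fibres of skin, bone and tendon, and FACIT collagens sit on the surface of those fibres. Type IV collagen forms the sheet of basement membranes, type VI forms beaded filaments around cells, and multiplexins are collagens of basement membranes that carry sugar chains. Fibroblasts are the main source of fibrillar collagen in connective tissue, and TGF-beta is a well-known inducer of its genes.

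Library totals ran from 10958430 to 11913143 counts. Mitochondrial transcripts took 1.96% to 2.21% of counts in the cocktail libraries, against 1.21% to 1.24% in MEF. All 15 fibroblast markers had counts in every medium, and their summed level was 10941 to 11090 CPM in CFAE+8+MSC, 8935 to 9109 CPM in CFAE+6 and 8997 to 9008 CPM in CFAE+8, against 21786 to 22625 CPM in MEF. Of the 14 fibroblast markers tested, 5 were higher and 9 lower in CFAE+8 than in MEF, beside 30.8% and 31.3% of all genes tested. Fn1, at 2412 ± 7.20 CPM in CFAE+8 and 10811 ± 413 CPM in MEF, and Fbln2, at 502 ± 4.75 CPM in CFAE+8 and 5072 ± 148 CPM in MEF (SD, n = 2 each), had a large part in the lower sum, while Twist1 rose (3.27 ± 0.05 on the log2 scale). Levels are CPM, the count relative to the library total after edgeR's scaling of the libraries. Changes are log2 ratios of 2 media with their standard error. Calls of higher or lower rest on edgeR's quasi-likelihood test with Benjamini-Hochberg adjustment across the genes tested and a threshold of 0.05. To compare genes with each other, CPM were divided by the length of all exon bases of the gene, in kilobases (CPM per kb). The 3 comparisons with MEF share the same 2 MEF libraries, so their values are given side by side and are not independent of each other.

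Collagen transcripts were fewer in all cocktails and of a different make-up. The 44 genes took 2.40 ± 0.0911% of counts in CFAE+8+MSC, 2.28 ± 0.0711% in CFAE+6 and 2.25 ± 0.00757% in CFAE+8, against 3.94 ± 0.0796% in MEF (SD, n = 2 each). In bulk RNA, fewer collagen-producing cells and less collagen RNA per cell cannot be told apart. On the per-length scale the 11 fibrillar genes made up 36.8 ± 0.0617% of the summed collagen level in CFAE+8+MSC, 34.3 ± 0.0608% in CFAE+6 and 41.7 ± 0.155% in CFAE+8, against 75.4 ± 0.224% in MEF. The 6 type VI genes made up 43.1 ± 0.192%, 45.3 ± 0.00185% and 42.3 ± 0.173% in CFAE+8+MSC, CFAE+6 and CFAE+8, against 8.13 ± 0.00479% in MEF. On this scale type VI had the largest share of the 8 classes in every cocktail, by a narrow margin in CFAE+8, and the fibrillar class in MEF. In CPM not divided by length the fibrillar class was above type VI in the cocktails too, at 9771 and 8831 CPM in CFAE+8+MSC, 8863 and 8450 CPM in CFAE+6 and 10324 and 7576 CPM in CFAE+8. The multiplexins took 8.23 ± 0.0130%, 9.96 ± 0.0641% and 8.02 ± 0.0955% in the same cocktails, against 0.418 ± 0.0152% in MEF. Type IV took 6.10 ± 0.0892% in CFAE+8+MSC and 5.19 ± 0.0365% in CFAE+6, but 1.89 ± 0.0247% in CFAE+8, against 8.32 ± 0.0448% in MEF.

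**Figure D1:**
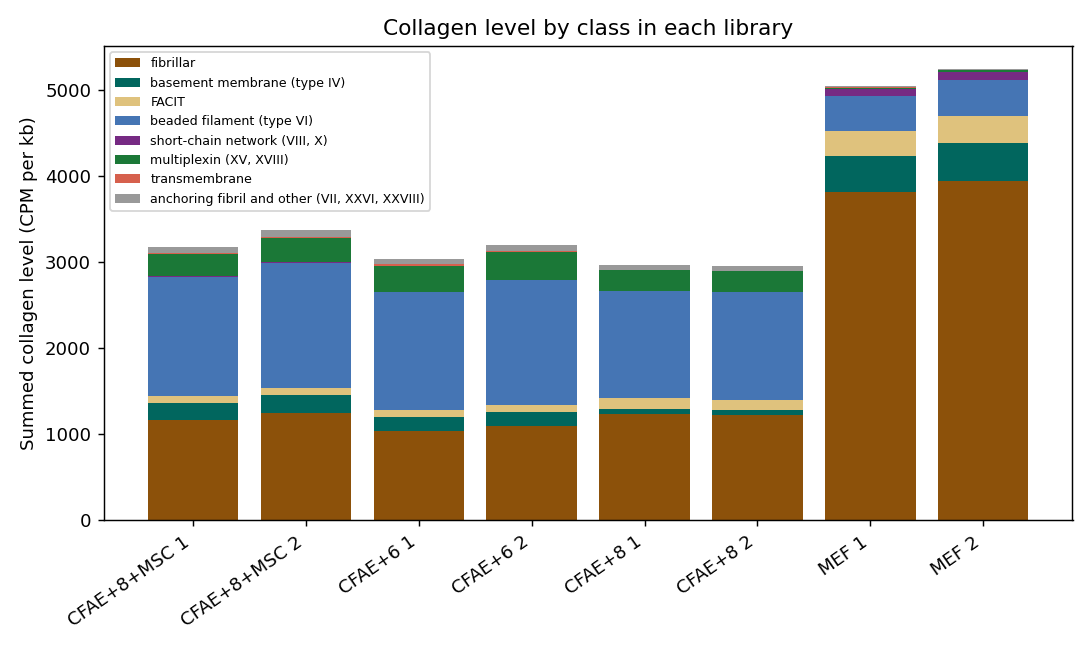
Summed level of the collagen genes (CPM per kb) in each of the 8 libraries, stacked by class, with 1 bar per library. The fibrillar part stands at 1069 to 1232 CPM per kb on average in the cocktails, against 3877 CPM per kb in MEF, while the type VI part stands at 1251 to 1413 CPM per kb in the cocktails, against 418 CPM per kb in MEF.

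Against MEF, most collagen genes passed the test in every cocktail, and in both directions. For CFAE+8+MSC 17 of 40 were higher and 18 lower, where 64.1% of all genes tested were called, 31.9% higher and 32.2% lower. For CFAE+6 17 of 40 were higher and 19 lower, where 63.1% were called, 31.6% higher and 31.5% lower. For CFAE+8 16 of 40 were higher and 21 lower, where 62% were called, 30.8% higher and 31.3% lower. Called changes of at least 1 on the log2 scale, in either direction, numbered 30 of 40 in CFAE+8+MSC (75%), 31 in CFAE+6 (77.5%) and 30 in CFAE+8 (75%), beside 26.7%, 25.9% and 24.9% of all genes tested. The median change of the tested collagen genes was 0.11 in CFAE+8+MSC, 0.12 in CFAE+6 and -0.53 in CFAE+8, beside 0.011, 0.018 and 0.012 over all genes. Genes at or near 0 or low in 1 or more media entered the test through the media in which they were high. They include Col6a6, Col9a1, Col10a1, Col13a1, Col17a1, Col26a1 and Col28a1, and their changes against the media with low counts are descriptions.

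Among the cocktails the changes were smaller. Set against CFAE+8, CFAE+8+MSC had 24 of 40 collagen genes higher and 4 lower, where 29.3% of all genes tested were called, 15.6% higher and 13.8% lower. CFAE+6 had 15 higher and 7 lower than CFAE+8, where 26.6% were called, 14.3% higher and 12.3% lower. CFAE+8+MSC had 11 higher and 5 lower than CFAE+6, where 10.5% were called, 6.21% higher and 4.27% lower. Without CFAE+8+MSC replicate 1, and likewise without CFAE+6 replicate 2, the count lower in that last comparison was 3. With a log2 change of at least 1 in either direction these counts were 9 (22.5%), 8 (20%) and 1 (2.5%), beside 6.41%, 5.57% and 0.924% of all genes tested. Medians were 0.28, 0.24 and 0.11 for the tested collagen genes, beside -0.0044, 0.00090 and -0.0042 over all genes.

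**Figure D2:**
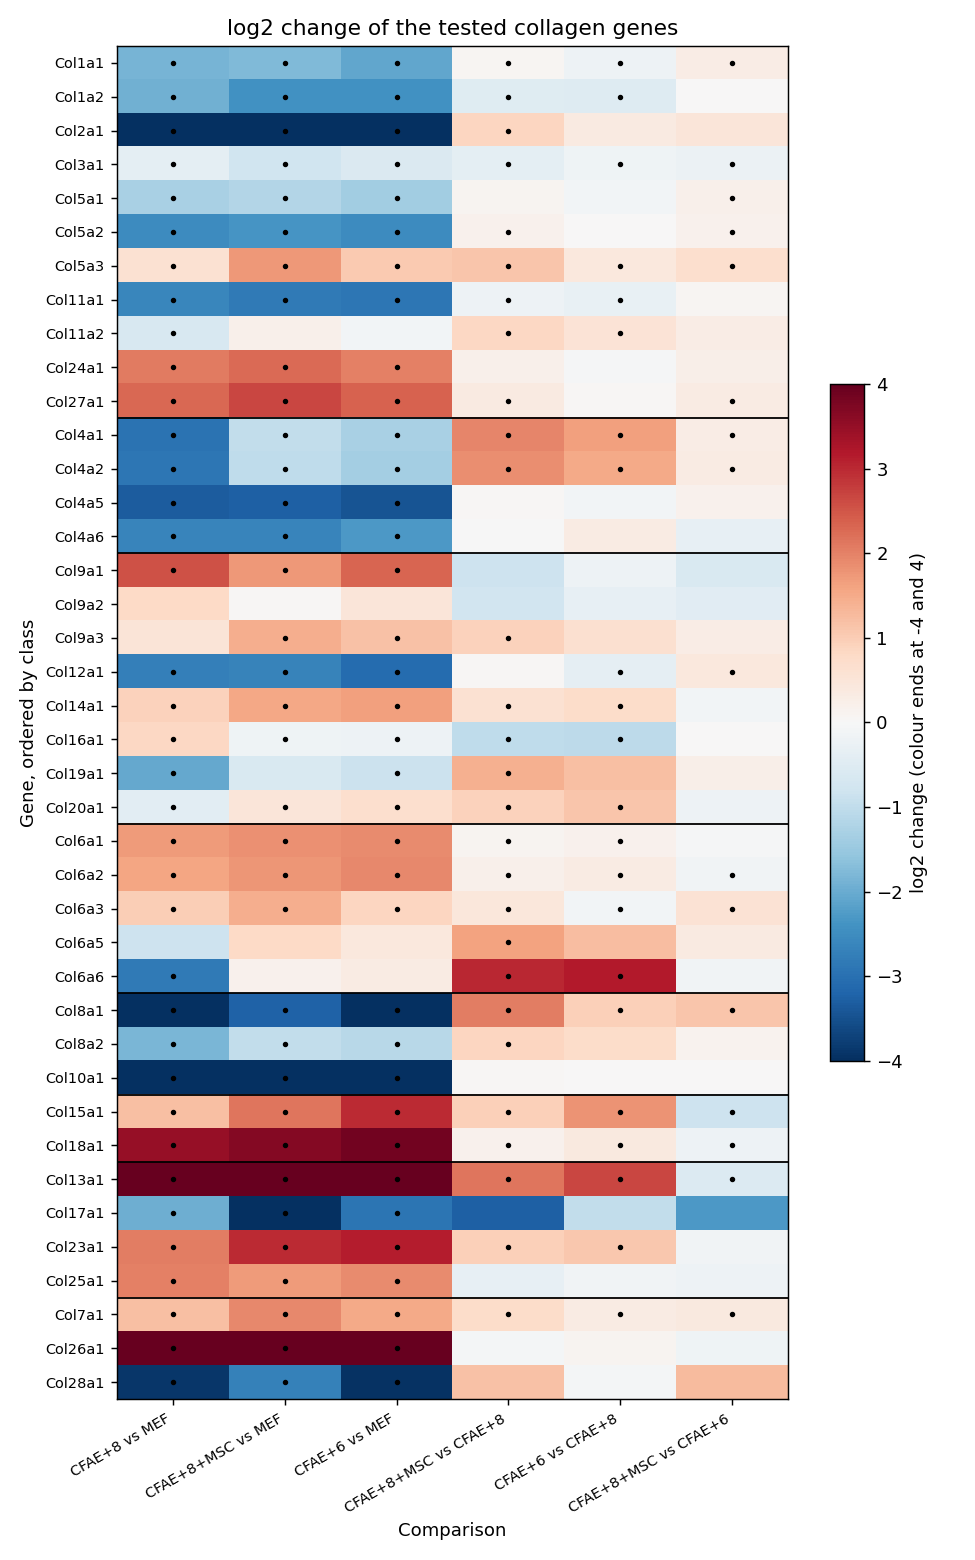
log2 change of each of the 40 tested collagen genes (rows, ordered by class with lines between classes) in the 6 comparisons (columns); red is higher and blue lower in the medium named first, and a dot marks a call at an adjusted p of 0.05. The first 3 columns hold both deep reds (Col13a1, Col18a1, Col26a1) and deep blues (Col2a1, Col8a1, Col10a1), while Col4a1, Col4a2, Col8a1 and Col13a1 are red in the fourth column, CFAE+8+MSC against CFAE+8.

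Marker lists of other cell types were measured as well. Their counts in CFAE+8 against MEF stand beside 30.8% higher and 31.3% lower over all genes tested. The shares were 31.9% and 32.2% in CFAE+8+MSC and 31.6% and 31.5% in CFAE+6. The epithelial counts in CFAE+8 did not exceed these shares. The summed level of 8 mesothelial markers was 17.4 to 20.2 CPM in CFAE+8+MSC, 16.8 to 18.7 CPM in CFAE+6 and 3.73 to 3.75 CPM in CFAE+8, against 158 to 161 CPM in MEF, and Lrrn4 had no count in any cocktail. All 8 fell in CFAE+8 against MEF. The 10 macrophage markers summed to 19.98 to 23.8, 20.7 to 23.7 and 38.4 to 39.5 CPM in CFAE+8+MSC, CFAE+6 and CFAE+8, against 190.1 to 190.4 CPM in MEF, and 9 of 10 fell in CFAE+8. The 8 skeletal muscle markers summed to 85.1 to 94.2, 55.1 to 56.1 and 23.2 to 26.3 CPM in those cocktails, against 155 to 165 CPM in MEF. Of 7 tested, 6 fell and 1 rose in CFAE+8 against MEF. The 10 endothelial markers summed to 116 to 119, 98.3 to 105.7 and 63.6 to 71.6 CPM in those cocktails, against 23.1 to 24.9 CPM in MEF. Tie1 had 0 counts in CFAE+8+MSC, CFAE+8 and MEF, Emcn in CFAE+8+MSC and CFAE+6, and Cldn5 in MEF. Of 7 tested, 4 rose and 1 fell in CFAE+8 against MEF. Esam (4.95 ± 0.18), Cdh5 (2.28 ± 0.34) and Kdr (0.56 ± 0.12) were among the risers. Emcn fell (-4.72 ± 0.83), from a low level of 2.24 CPM in MEF. Epithelial markers summed to 36.4 to 37.6, 28.8 to 30.2 and 9.65 to 10.9 CPM in the cocktails, against 10.2 to 12.5 CPM in MEF, and 1 rose and 2 fell of 7 tested in CFAE+8. The 10 bone markers summed to 439 to 456, 596 to 602 and 554 to 587 CPM, against 1019 to 1063 CPM in MEF. Of 5 tested, however, 4 were higher and only Spp1 lower in each cocktail than in MEF. Spp1, the most abundant of them, averaged 389 ± 17.9 CPM in CFAE+8 and 981 ± 32.2 CPM in MEF, while Sp7 (4.85 ± 0.17), Ibsp (6.22 ± 0.28) and Runx2 (1.11 ± 0.07) rose in CFAE+8. Neural crest and Schwann cell markers summed to 34.4 to 38.9, 37.1 to 38.1 and 20.5 to 21.3 CPM, against 29.3 to 30.6 CPM in MEF, and 1 rose and 4 fell of 8 in CFAE+8. The part of these cells in the collagen changes was not tested.

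Promoters are shown for 7 members. Col6a1, Col6a2, Col6a3 and Col18a1 were higher in every cocktail than in MEF. Col3a1, Col8a1 and Col10a1 were lower in every cocktail, by unequal amounts. Among the cocktails, Col3a1 was lowest and Col8a1 highest in CFAE+8+MSC. Each promoter is the stretch of up to 250 bases before the gene's start, 5′ to 3′ on the strand of the gene. The stretches come from RefSeq on GRCm38.p6, without bases that lie in annotated exons of any gene. Capitals mark matches, on either strand, to 7 short motifs. The letters CAGACA form an element bound by SMAD proteins. The motif CTTTGAA, like the motif CTTTGAT, is bound by TCF and LEF proteins. The letters TGACGTCA form the cyclic AMP response element. The motif CCAAT is the CCAAT box, GGGCGG the GC box bound by Sp factors, and TATAAA the TATA box.
Col6a1, chr10:76726169-76726294, minus strand: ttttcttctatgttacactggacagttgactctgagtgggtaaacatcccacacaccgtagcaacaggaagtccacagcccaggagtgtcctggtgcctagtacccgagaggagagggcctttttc
Col6a2, chr10:76623631-76623880, minus strand: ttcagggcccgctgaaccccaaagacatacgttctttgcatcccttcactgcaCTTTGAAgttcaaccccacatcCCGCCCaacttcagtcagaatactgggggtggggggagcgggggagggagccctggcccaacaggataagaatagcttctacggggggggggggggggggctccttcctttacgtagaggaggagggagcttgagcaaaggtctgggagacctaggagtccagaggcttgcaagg
Col6a3, chr1:90843972-90844221, minus strand: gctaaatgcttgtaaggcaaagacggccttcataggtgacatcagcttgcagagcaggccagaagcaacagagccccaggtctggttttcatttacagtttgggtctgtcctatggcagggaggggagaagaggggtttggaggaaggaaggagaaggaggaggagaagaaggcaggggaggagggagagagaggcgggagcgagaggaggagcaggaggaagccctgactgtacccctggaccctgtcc
Col18a1, chr10:77166549-77166780, minus strand: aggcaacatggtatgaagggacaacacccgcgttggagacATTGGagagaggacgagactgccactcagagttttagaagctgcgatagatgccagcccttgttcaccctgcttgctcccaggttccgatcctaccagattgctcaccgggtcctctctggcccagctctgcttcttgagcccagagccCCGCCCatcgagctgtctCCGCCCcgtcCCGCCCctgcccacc
Col3a1, chr1:45311288-45311537, plus strand: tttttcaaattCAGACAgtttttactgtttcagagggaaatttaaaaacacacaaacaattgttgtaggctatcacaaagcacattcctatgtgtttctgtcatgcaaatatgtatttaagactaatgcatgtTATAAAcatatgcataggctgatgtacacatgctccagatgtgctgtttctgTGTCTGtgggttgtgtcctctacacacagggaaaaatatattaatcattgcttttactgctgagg
Col8a1, chr16:57754738-57754987, minus strand: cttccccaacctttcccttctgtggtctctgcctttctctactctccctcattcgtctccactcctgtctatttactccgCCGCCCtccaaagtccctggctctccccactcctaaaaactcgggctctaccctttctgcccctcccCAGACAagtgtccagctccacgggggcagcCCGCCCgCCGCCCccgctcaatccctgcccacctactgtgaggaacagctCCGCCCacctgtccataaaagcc
Col10a1, chr10:34389731-34389980, plus strand: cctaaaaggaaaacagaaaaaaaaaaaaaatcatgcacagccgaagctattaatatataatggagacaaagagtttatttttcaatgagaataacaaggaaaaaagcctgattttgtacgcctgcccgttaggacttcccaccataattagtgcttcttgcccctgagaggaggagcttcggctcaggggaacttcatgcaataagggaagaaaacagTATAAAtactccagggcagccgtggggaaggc
A promoter entry was found for 35 of the 44 genes, with 38 entries in all. A gene was counted for a motif if any of its entries matched, while the shares over all promoters are per entry. Over the full 250 bases, CAGACA was present in 9 of the 35, beside 15.2% of 21263 promoters of the same length, and CTTTGAA in 4 of 35, beside 4.05% of all. CTTTGAT was found in 1 of 35 (2.82% of all), TGACGTCA in 0 of 35 (1.92%), CCAAT in 13 of 35 (35.4%), GGGCGG in 21 of 35 (42.6%) and TATAAA in 5 of 35 (11.6%). Matches of different motifs did not overlap in these genes. Among the stretches printed, CAGACA stands in the promoters of Col3a1 and Col8a1, and CTTTGAA in that of Col6a2. With the full 250 bases of every promoter entry, CAGACA was also found for Col18a1 and Col7a1, which were higher in every cocktail than in MEF. It was found as well for Col1a2, Col5a1 and Col28a1, which were lower in every cocktail, and for Col9a2 and Col20a1. The 7 genes printed were picked for display, so they do not show how a motif is spread over the collagen genes. A match describes the letters and is not a binding site.

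Most fibrillar genes fell, and Col5a3, Col24a1 and Col27a1 rose. Of the 11, 3 were higher and 7 lower in CFAE+8+MSC, 3 and 7 in CFAE+6, and 3 and 8 in CFAE+8, against MEF. Col1a1 encodes the major chain of type I collagen, the main protein of bone, skin and tendon (mm10 chromosome 11, 94936224 to 94953042). It stood at 4181 and 4453 CPM in CFAE+8+MSC, 3354 and 3648 CPM in CFAE+6 and 4099 and 4005 CPM in CFAE+8, against 14435 and 14974 CPM in MEF. The cocktail libraries all lay far below both MEF libraries, with log2 changes of -1.77 ± 0.04 in CFAE+8+MSC, -2.07 ± 0.04 in CFAE+6 and -1.86 ± 0.04 in CFAE+8 (adjusted p at most 1.65e-26). Col1a2, the other chain of type I collagen, was at 1415 and 1441 CPM in CFAE+8+MSC, 1397 and 1427 CPM in CFAE+6 and 2010.0 and 2025 CPM in CFAE+8, against 7513 and 7654 CPM in MEF. Its changes were -2.41 ± 0.03 in CFAE+8+MSC, -2.43 ± 0.03 in CFAE+6 and -1.91 ± 0.03 in CFAE+8 (adjusted p at most 1.93e-28). Both chains fell in all cocktails, Col1a2 with the lowest values in CFAE+8+MSC and CFAE+6, whose libraries overlapped.

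Type III and type V collagen mix with type I in fibrils, and type V starts and thins them. Col3a1 was at 1628 and 1701 CPM in CFAE+8+MSC, 1926 and 1950.1 CPM in CFAE+6 and 2178 and 2185 CPM in CFAE+8, against 2853 and 2885 CPM in MEF. Its falls were smaller than those of Col1a1, Col1a2, Col5a1 and Col5a2, at -0.79 ± 0.03 in CFAE+8+MSC, -0.57 ± 0.03 in CFAE+6 and -0.39 ± 0.03 in CFAE+8 (adjusted p at most 2.01e-11). Col3a1 was also lower in CFAE+8+MSC than in CFAE+6 (-0.22 ± 0.03, adjusted p = 3.3e-05) and in CFAE+6 than in CFAE+8 (-0.17 ± 0.03, adjusted p = 0.000254). Of its exon bases 1.44% overlap another gene, beside 2.5% for Col5a1. Col5a1 had 1185 and 1287 CPM in CFAE+8+MSC, 1053 and 1085 CPM in CFAE+6 and 1149 and 1150.2 CPM in CFAE+8, against 2716 and 2895 CPM in MEF, with changes of -1.18 ± 0.04 in CFAE+8+MSC, -1.39 ± 0.04 in CFAE+6 and -1.29 ± 0.04 in CFAE+8. Col5a2 had 596 and 656 CPM in CFAE+8+MSC, 549 and 567 CPM in CFAE+6 and 554 and 560.4 CPM in CFAE+8, against 3143 and 3268 CPM in MEF, with changes of -2.36 ± 0.04 in CFAE+8+MSC, -2.52 ± 0.04 in CFAE+6 and -2.52 ± 0.04 in CFAE+8 (adjusted p at most 8.04e-21 for both genes). Chains that join in 1 molecule thus fell by unequal amounts. Col5a3, a further type V chain, went the other way, at 133 and 150.0 CPM in CFAE+8+MSC, 85.2 and 90.8 CPM in CFAE+6 and 65.3 and 66.6 CPM in CFAE+8, against 42.8 and 42.9 CPM in MEF. It was higher in each cocktail than in MEF (1.72 ± 0.07 in CFAE+8+MSC, 1.04 ± 0.07 in CFAE+6 and 0.62 ± 0.08 in CFAE+8, adjusted p at most 4.2e-08), and no 2 media overlapped. Col5a3 was 2.15-fold higher in CFAE+8+MSC than in CFAE+8 (log2 change 1.10 ± 0.07, adjusted p = 1.12e-13).

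Col2a1 and Col11a1 encode the fibrillar chains of cartilage. Col2a1 had 8.99 and 9.21 CPM in CFAE+8+MSC, 6.25 and 6.84 CPM in CFAE+6 and 5.63 and 4.49 CPM in CFAE+8, against 233 and 262 CPM in MEF. All cocktail libraries lay more than an order of magnitude below MEF, with changes of -4.77 ± 0.09 in CFAE+8+MSC, -5.24 ± 0.10 in CFAE+6 and -5.61 ± 0.10 in CFAE+8 (adjusted p at most 1.12e-26). Col2a1 was higher in CFAE+8+MSC than in CFAE+8 (0.85 ± 0.17, adjusted p = 0.000213). Its other steps among the cocktails did not pass. These were CFAE+6 against CFAE+8 (0.37 ± 0.18, adjusted p = 0.13) and CFAE+8+MSC against CFAE+6 (0.48 ± 0.16, adjusted p = 0.0525). Summed cartilage markers had the same order across the media as the Col2a1 levels: the 15 markers summed to 46.4 to 48.1 CPM in CFAE+8+MSC, 34.8 to 38.4 CPM in CFAE+6 and 21.6 to 23.0 CPM in CFAE+8, against 75.9 to 82.5 CPM in MEF. Of 9 cartilage markers tested, 5 fell and 3 rose in CFAE+8+MSC against MEF, 5 fell and 4 rose in CFAE+6, and 5 fell and none rose in CFAE+8. Over all genes tested, 32.2% fell and 31.9% rose in CFAE+8+MSC, 31.5% and 31.6% in CFAE+6, and 31.3% and 30.8% in CFAE+8. In the marker list 6 rose and none fell in CFAE+8+MSC against CFAE+8, beside 15.6% and 13.8% of all genes tested. Ucma had no count in CFAE+8+MSC, CFAE+6 or MEF. The part of the cartilage markers in the change of Col2a1 was not tested. Col11a1 was at 55.6 and 52.5 CPM in CFAE+8+MSC, 55.2 and 48.2 CPM in CFAE+6 and 64.7 and 61.1 CPM in CFAE+8, against 367 and 399.9 CPM in MEF. It fell in every cocktail (-2.83 ± 0.07 in CFAE+8+MSC, -2.89 ± 0.07 in CFAE+6 and -2.61 ± 0.07 in CFAE+8, adjusted p at most 3.58e-24). Col11a2, another chain of type XI, was at 12.3 and 12.4 CPM in CFAE+8+MSC, 9.51 and 10.6 CPM in CFAE+6 and 7.33 and 6.52 CPM in CFAE+8, against 10.3 and 11.2 CPM in MEF. It fell in CFAE+8 against MEF (-0.64 ± 0.18, adjusted p = 0.00244), while its changes in CFAE+8+MSC and CFAE+6 did not pass (0.20 ± 0.16 and -0.10 ± 0.17, adjusted p = 0.298 and 0.632). It was higher in CFAE+8+MSC than in CFAE+8 (0.83 ± 0.17, adjusted p = 0.000357).

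The other risers of the class were Col27a1 and Col24a1, minor fibrillar collagens of cartilage and bone. Col27a1 had 199 and 219 CPM in CFAE+8+MSC, 164 and 170.2 CPM in CFAE+6 and 161 and 162 CPM in CFAE+8, against 31.2 and 34.3 CPM in MEF. Its changes were 2.67 ± 0.07 in CFAE+8+MSC, 2.35 ± 0.07 in CFAE+6 and 2.30 ± 0.07 in CFAE+8 (adjusted p at most 5.6e-22). Col24a1 had 66.0 and 79.6 CPM in CFAE+8+MSC, 60.7 and 62.5 CPM in CFAE+6 and 66.1 and 61.5 CPM in CFAE+8, against 13.0 and 17.4 CPM in MEF, with changes of 2.26 ± 0.11 in CFAE+8+MSC, 2.02 ± 0.11 in CFAE+6 and 2.07 ± 0.11 in CFAE+8 (adjusted p at most 1.12e-15). Both genes were well separated from MEF in every cocktail library. On the per-length scale they stayed minor: Col27a1 averaged 16.0, 12.8 and 12.4 CPM per kb in CFAE+8+MSC, CFAE+6 and CFAE+8, beside 658, 533 and 617 CPM per kb for Col1a1.

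**Figure D3:**
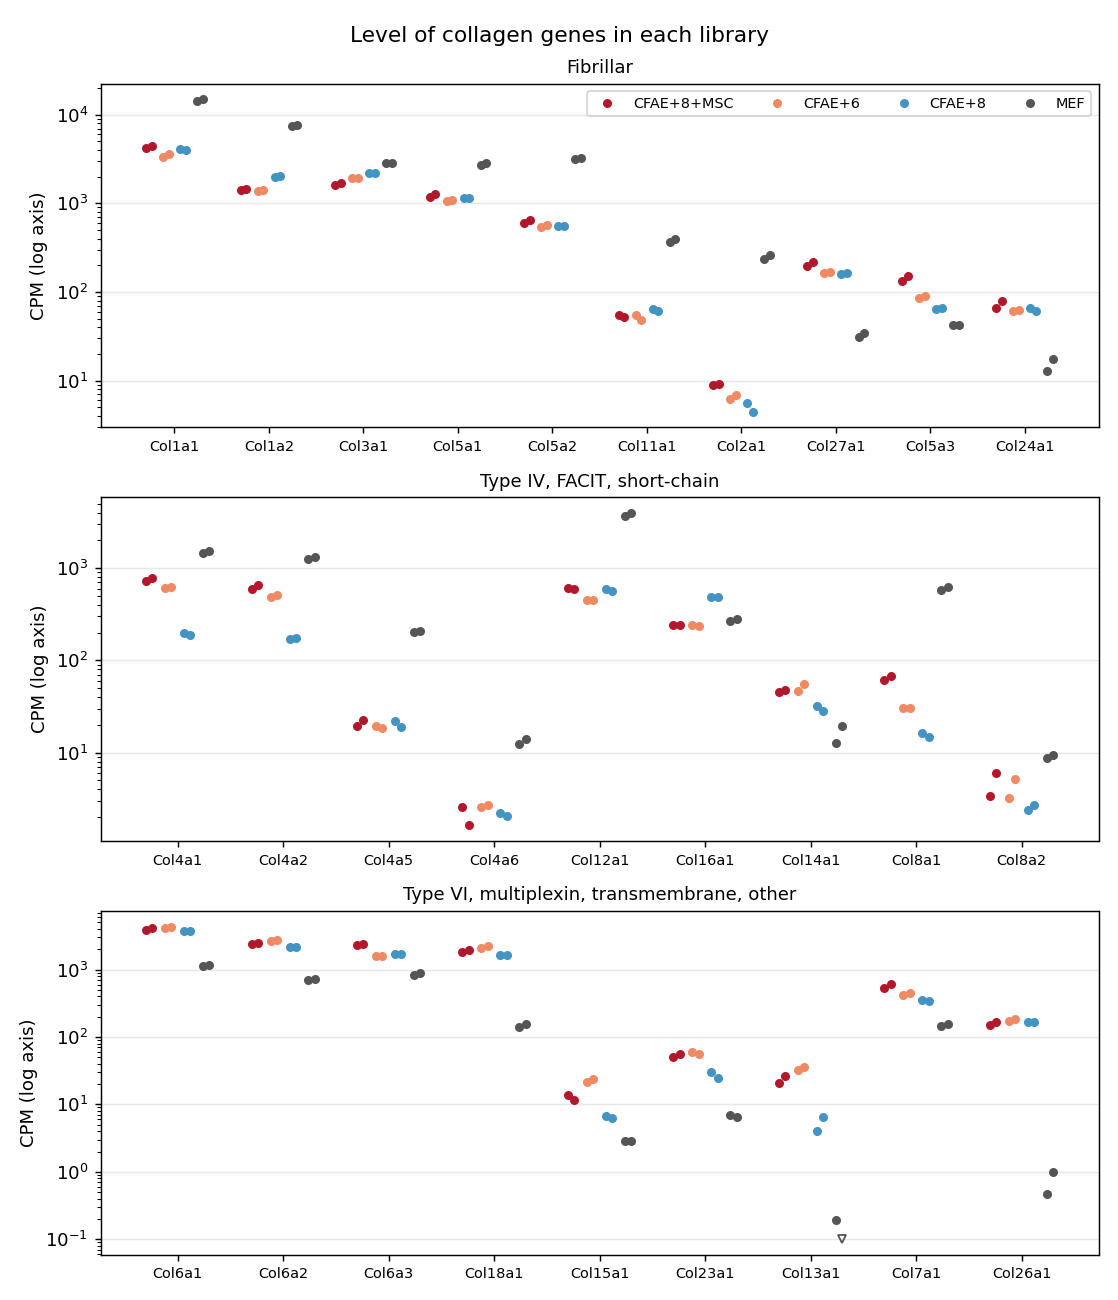
Level (CPM, log axis) of 28 collagen genes, 1 dot per library and 4 colours for the 4 media, in 3 panels by class. The open triangle marks the MEF library without a Col13a1 count. Col1a1, Col1a2, Col5a2, Col12a1 and Col8a1 stand highest in MEF, Col6a1, Col6a2, Col18a1 and Col26a1 lowest in MEF, and Col4a1 and Col4a2 lowest in CFAE+8.

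The genes of the basement membrane network fell in every cocktail, and the pair Col4a1 and Col4a2 fell most in CFAE+8. All 4 type IV genes tested were lower in each cocktail than in MEF. Col4a1 and Col4a2 encode the chains of the common type IV network and lie head to head on mm10 chromosome 8 (11198423 to 11312826 on the minus strand and 11312805 to 11449287 on the plus strand), where their spans overlap by 22 bases. Col4a1 had 729.6 and 783 CPM in CFAE+8+MSC, 606 and 624 CPM in CFAE+6 and 200.04 and 191 CPM in CFAE+8, against 1471 and 1549 CPM in MEF. Col4a2 had 602 and 659 CPM in CFAE+8+MSC, 489 and 516 CPM in CFAE+6 and 172 and 175 CPM in CFAE+8, against 1253 and 1309 CPM in MEF. No 2 media overlapped for either gene, and CFAE+8 was lowest, followed by CFAE+6, CFAE+8+MSC and MEF. Against MEF, Col4a1 changed by -0.998 ± 0.04 in CFAE+8+MSC, -1.30 ± 0.04 in CFAE+6 and -2.95 ± 0.05 in CFAE+8, and Col4a2 by -1.02 ± 0.05 in CFAE+8+MSC, -1.35 ± 0.05 in CFAE+6 and -2.88 ± 0.05 in CFAE+8 (adjusted p at most 5.38e-18). Col4a1 was 3.87-fold higher in CFAE+8+MSC than in CFAE+8 (log2 change 1.95 ± 0.05, adjusted p = 2.07e-23), and Col4a2 3.62-fold higher (1.86 ± 0.05, adjusted p = 2e-22). In CFAE+6 the same genes were 3.15-fold and 2.89-fold higher than in CFAE+8 (adjusted p at most 6.97e-20).

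Col4a5 and Col4a6 encode chains found in basement membranes of smooth muscle and epithelium, and their starts lie 1308 bases apart on chromosome X. Col4a5 was at 19.6 and 22.8 CPM in CFAE+8+MSC, 19.5 and 18.4 CPM in CFAE+6 and 22.0 and 18.9 CPM in CFAE+8, against 202 and 209 CPM in MEF. Col4a6 was at 2.59 and 1.63 CPM in CFAE+8+MSC, 2.55 and 2.73 CPM in CFAE+6 and 2.22 and 2.03 CPM in CFAE+8, against 12.3 and 13.9 CPM in MEF. Both fell in every cocktail. The changes were -3.28 ± 0.08 in CFAE+8+MSC, -3.44 ± 0.08 in CFAE+6 and -3.33 ± 0.08 in CFAE+8 for Col4a5, and -2.63 ± 0.25 in CFAE+8+MSC, -2.31 ± 0.24 in CFAE+6 and -2.63 ± 0.25 in CFAE+8 for Col4a6 (adjusted p at most 1.11e-09). Among the cocktails their libraries overlapped or lay close, and no change passed: in CFAE+8+MSC against CFAE+8 the 95% interval of the log2 change was -0.16 to 0.27 for Col4a5 and -0.67 to 0.66 for Col4a6. The intervals for Col4a1 and Col4a2 in that comparison, 1.86 to 2.05 and 1.76 to 1.96, lay above both. Col4a3 and Col4a4, the chains of the kidney filter, had 16 and 37 counts over all 8 libraries and were not tested. The summed skeletal muscle markers had the order of Col4a1 across the media, and 5 of 7 tested were higher in CFAE+8+MSC than in CFAE+8. The summed cartilage markers had that order too, and 6 of 9 tested were higher in CFAE+8+MSC than in CFAE+8. The summed mesothelial markers were lowest in CFAE+8 and highest in MEF, with overlapping ranges in CFAE+8+MSC and CFAE+6, and 4 of 8 were higher in CFAE+8+MSC than in CFAE+8. Other lists rose too in that comparison, with 9 of 14 fibroblast and 5 of 7 epithelial markers higher. The same held for 4 of 8 neural crest and Schwann, 3 of 7 endothelial and 1 of 5 bone markers. Lower were 3 fibroblast, 2 bone and 3 of 10 macrophage markers, and no macrophage marker was higher. Over all genes tested, 15.6% were higher and 13.8% lower in CFAE+8+MSC than in CFAE+8. The part of these markers in the type IV changes was not tested.

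The FACIT collagens divided. Col12a1, whose product coats type I fibrils in dense connective tissue, had the highest FACIT level per length in MEF (252 CPM per kb). It had 615 and 593 CPM in CFAE+8+MSC, 457 and 455 CPM in CFAE+6 and 593 and 567 CPM in CFAE+8, against 3707 and 3957 CPM in MEF. It fell in all cocktails, with changes of -2.67 ± 0.04 in CFAE+8+MSC, -3.07 ± 0.04 in CFAE+6 and -2.72 ± 0.04 in CFAE+8 (adjusted p at most 2.43e-29), and was lower in CFAE+6 than in CFAE+8 (-0.35 ± 0.04, adjusted p = 7.88e-08). Col14a1, a close relative that also binds fibrils, had 45.6 and 47.8 CPM in CFAE+8+MSC, 46.3 and 55.4 CPM in CFAE+6 and 32.4 and 28.4 CPM in CFAE+8, against 12.8 and 19.4 CPM in MEF. It rose instead, by 1.53 ± 0.13 in CFAE+8+MSC, 1.66 ± 0.13 in CFAE+6 and 0.91 ± 0.14 in CFAE+8 (adjusted p at most 1.03e-06). Col14a1 was higher in CFAE+8+MSC and CFAE+6 than in CFAE+8 as well (0.62 ± 0.12 and 0.74 ± 0.11, adjusted p at most 0.000107).

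Col16a1, a FACIT collagen of skin and muscle, rose in CFAE+8 and was slightly lower in CFAE+8+MSC and CFAE+6 than in MEF. It had 240.1 and 244 CPM in CFAE+8+MSC, 240.4 and 237 CPM in CFAE+6 and 491 and 486 CPM in CFAE+8, against 268 and 282 CPM in MEF. Both CFAE+8 libraries stood far above the other 6, and the CFAE+8+MSC and CFAE+6 libraries overlapped. The change against MEF was 0.83 ± 0.05 in CFAE+8 (adjusted p = 1.78e-15), and -0.18 ± 0.05 and -0.21 ± 0.05 in CFAE+8+MSC and CFAE+6 (adjusted p = 0.00138 and 0.000461). Against CFAE+8 it was 2.02-fold lower in CFAE+8+MSC (-1.01 ± 0.05, adjusted p = 1.84e-16) and 2.05-fold lower in CFAE+6 (-1.03 ± 0.05, adjusted p = 2.06e-16). Col4a1 and Col4a2, by contrast, were lowest in CFAE+8.

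The rest of the FACIT class was rare. Col20a1 had 12.3 and 16.6 CPM in CFAE+8+MSC, 16.7 and 16.4 CPM in CFAE+6 and 6.90 and 8.47 CPM in CFAE+8, against 10.7 and 9.88 CPM in MEF. It was higher in CFAE+6 than in MEF (0.69 ± 0.16, adjusted p = 0.000599) and than in CFAE+8 (1.11 ± 0.17, adjusted p = 8.64e-06). Its call in CFAE+8+MSC against MEF (adjusted p = 0.0126) was lost without CFAE+8+MSC replicate 2 (0.257) and without MEF replicate 2 (0.0879). The call in CFAE+8 against MEF (adjusted p = 0.0464) was lost without CFAE+8 replicate 1 (0.291) and without either MEF library (0.184 and 0.0682). Col9a1, a chain of cartilage type IX collagen, had 1.73 and 1.35 CPM in CFAE+8+MSC, 3.08 and 1.62 CPM in CFAE+6 and 2.81 and 2.63 CPM in CFAE+8, against 0.380 and 0.549 CPM in MEF. It was higher in each cocktail (1.73 ± 0.55 in CFAE+8+MSC, 2.33 ± 0.51 in CFAE+6 and 2.55 ± 0.50 in CFAE+8, adjusted p at most 0.00763), but in CFAE+8+MSC the call was lost without CFAE+8+MSC replicate 1 (0.0551) or MEF replicate 1 (0.0631). Col19a1 had 1.99 and 1.90 CPM in CFAE+8+MSC, 1.94 and 1.37 CPM in CFAE+6 and 0.938 and 0.508 CPM in CFAE+8, against 3.13 and 2.84 CPM in MEF, and was lower in CFAE+8 than in MEF (-2.05 ± 0.43, adjusted p = 0.000152). Its call in CFAE+6 against MEF (adjusted p = 0.0471) was lost without any 1 of those 4 libraries (0.0539 to 0.261). Its call in CFAE+8+MSC against CFAE+8 (adjusted p = 0.0188) was lost without CFAE+8 replicate 2 (0.195) or either CFAE+8+MSC library (0.08 and 0.0581). Col9a2 and Col9a3, the other type IX chains, averaged below 5 CPM in all media. Col9a2 passed in no comparison, and Col9a3 was higher in CFAE+8+MSC and CFAE+6 than in MEF (1.45 ± 0.32 and 1.17 ± 0.33). Of the Col9a3 exon bases 6.07% overlap the gene Tcfl5, the largest such share of the 44 genes, and the libraries do not mark strand. Col22a1 had 46 counts over all 8 libraries and was not tested.

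The 3 common chains of type VI collagen rose together. Col6a1, Col6a2 and Col6a3 encode the chains that form 1 molecule, and mutations in each cause muscle disease. Col6a1 (mm10 chromosome 10, 76708792 to 76726168) had 3919 and 4175 CPM in CFAE+8+MSC, 4067 and 4293 CPM in CFAE+6 and 3725 and 3731 CPM in CFAE+8, against 1117 and 1160.4 CPM in MEF. Col6a2 had 2398 and 2497 CPM in CFAE+8+MSC, 2619 and 2777 CPM in CFAE+6 and 2138 and 2151 CPM in CFAE+8, against 708 and 723 CPM in MEF. Col6a3 had 2303 and 2363 CPM in CFAE+8+MSC, 1566 and 1572 CPM in CFAE+6 and 1712 and 1693 CPM in CFAE+8, against 834 and 887 CPM in MEF. In every cocktail library all 3 genes stood above both MEF libraries. Col6a1 changed by 1.83 ± 0.04 in CFAE+8+MSC, 1.88 ± 0.04 in CFAE+6 and 1.71 ± 0.04 in CFAE+8, and Col6a2 by 1.77 ± 0.04 in CFAE+8+MSC, 1.91 ± 0.04 in CFAE+6 and 1.58 ± 0.04 in CFAE+8. Col6a3 changed least, by 1.44 ± 0.04 in CFAE+8+MSC, 0.87 ± 0.04 in CFAE+6 and 0.98 ± 0.04 in CFAE+8 (adjusted p at most 1.7e-18 for the 3 genes). Per length, Col6a1 was the highest collagen gene in each cocktail, at 924 CPM per kb in CFAE+8+MSC, 954 in CFAE+6 and 851 in CFAE+8, and stood 16th, 17th and 18th among all protein-coding genes. In MEF it averaged 260.0 CPM per kb and ranked 125th, while Col1a1, at 2240.5 CPM per kb, ranked 4th. The order in the cocktails depends on the division by length. In CPM, Col1a1 averaged above Col6a1 in CFAE+8+MSC (4317 and 4047 CPM) and CFAE+8 (4052 and 3728 CPM). Only in CFAE+6 was Col1a1 below Col6a1 (3501 and 4180 CPM).

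With MSC2530818 added, all 5 tested type VI genes were higher than in CFAE+8. For the common chains the steps were 0.12 ± 0.03 for Col6a1, 0.19 ± 0.04 for Col6a2 and 0.45 ± 0.04 for Col6a3 (adjusted p at most 0.0103). The Col6a1 call was lost without either CFAE+8 library (adjusted p = 0.0775 and 0.0741) and without CFAE+8+MSC replicate 2 (0.168). Col6a3 was lower in CFAE+6 than in CFAE+8, with 1569 ± 4.20 CPM in CFAE+6 and 1703 ± 13.5 CPM in CFAE+8 (SD, n = 2 each; log2 change -0.12 ± 0.04, adjusted p = 0.0154). That call was lost without either CFAE+8 library (0.142 and 0.0907). Col6a3 was higher in CFAE+8+MSC than in CFAE+6 (0.57 ± 0.04, adjusted p = 1.79e-12), whereas Col6a2 was lower (-0.14 ± 0.04, adjusted p = 0.00901), a call lost without CFAE+8+MSC replicate 1 (0.132) or CFAE+6 replicate 2 (0.149). Col6a6, a chain that can take the place of Col6a3, was rare at 1.12 and 1.63 CPM in CFAE+8+MSC, 2.20 and 0.855 CPM in CFAE+6 and 0.170 and 0.169 CPM in CFAE+8, against 1.04 and 1.37 CPM in MEF. It was lower in CFAE+8, with 2 and 2 counts, than in MEF, with 11 and 15 counts (-2.83 ± 0.77). That change is a description because the gene entered the test through other media than CFAE+8. Col6a5 stayed below 2 CPM, and its call in CFAE+8+MSC against CFAE+8 (adjusted p = 0.0226) was lost when any 1 of those 4 libraries was left out (0.0843 to 0.139). Col6a4 had 12 counts in all and was not tested.

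All 3 short-chain collagens fell in every cocktail. Col8a1 encodes a chain of the hexagonal lattice around blood vessels and under the corneal endothelium. It had 61.6 and 67.5 CPM in CFAE+8+MSC, 30.1 and 30.2 CPM in CFAE+6 and 16.5 and 14.7 CPM in CFAE+8, against 576 and 631 CPM in MEF. No 2 media overlapped, and the falls from MEF were -3.23 ± 0.06 in CFAE+8+MSC, -4.32 ± 0.07 in CFAE+6 and -5.27 ± 0.08 in CFAE+8 (adjusted p at most 6.52e-27). Its level in CFAE+8+MSC was 4.14-fold higher than in CFAE+8 (log2 change 2.05 ± 0.09, adjusted p = 2.01e-17) and 2.14-fold higher than in CFAE+6 (1.10 ± 0.08, adjusted p = 2.1e-11). It was the 1 collagen gene called with a log2 change of at least 1 between those 2 cocktails. Col8a2, its partner chain, was below 10 CPM in all libraries and also fell in each cocktail (-0.97 ± 0.25 in CFAE+8+MSC, -1.12 ± 0.25 in CFAE+6 and -1.84 ± 0.27 in CFAE+8, adjusted p at most 0.00121). In CFAE+8+MSC that call was lost without CFAE+8+MSC replicate 1 (0.0566).

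Col10a1 is the collagen of hypertrophic cartilage cells, which prepare cartilage for bone formation. It had 125 and 143 counts in the MEF libraries and 1 count in all over the libraries of each cocktail, or 11.9 and 13.1 CPM in MEF. The ratio was 283-fold lower in CFAE+8+MSC (95% counting interval 50.3 to 11201), 288-fold lower in CFAE+6 (51.2 to 11411) and 294-fold lower in CFAE+8 (52.3 to 11648). These intervals cover counting error only. Cartilage markers moved in both directions in CFAE+8+MSC and CFAE+6, as given for Col2a1, and their part was not tested.

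Both multiplexins rose in every cocktail. Their summed level was 12.5 times the MEF level in CFAE+8+MSC, 14.4 times in CFAE+6 and 11.04 times in CFAE+8, the largest such ratio of the 8 classes. Col18a1 encodes a basement membrane collagen whose end piece is known as endostatin, an inhibitor of blood vessel growth. It had 1823 and 1934 CPM in CFAE+8+MSC, 2091 and 2218 CPM in CFAE+6 and 1647 and 1668 CPM in CFAE+8, against 141 and 155 CPM in MEF. All cocktail libraries lay above MEF, 12.7-fold in CFAE+8+MSC, 14.6-fold in CFAE+6 and 11.2-fold in CFAE+8 on average, with log2 changes of 3.67 ± 0.05 in CFAE+8+MSC, 3.86 ± 0.05 in CFAE+6 and 3.49 ± 0.05 in CFAE+8 (adjusted p at most 1.2e-30). It rose above CFAE+8 in both other cocktails, by 0.18 ± 0.04 in CFAE+8+MSC and 0.38 ± 0.04 in CFAE+6 (adjusted p at most 0.00106). By its level per length, Col18a1 was the 4th collagen gene in each cocktail and the 17th in MEF. Col15a1, its relative in vessel and muscle basement membranes, had 13.7 and 11.6 CPM in CFAE+8+MSC, 21.2 and 23.8 CPM in CFAE+6 and 6.73 and 6.35 CPM in CFAE+8, against 2.85 and 2.84 CPM in MEF. Here CFAE+6 stood highest, and no 2 media overlapped. The changes against MEF were 2.15 ± 0.20 in CFAE+8+MSC, 2.99 ± 0.19 in CFAE+6 and 1.20 ± 0.22 in CFAE+8 (adjusted p at most 3.21e-05), and Col15a1 was lower in CFAE+8+MSC than in CFAE+6 (-0.83 ± 0.15, adjusted p = 0.000196).

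Transmembrane collagens span the cell membrane and shed their outer part. Col13a1, a collagen of the nerve-muscle junction, had 20.8 and 26.2 CPM in CFAE+8+MSC, 32.0 and 36.0 CPM in CFAE+6 and 4.01 and 6.61 CPM in CFAE+8, against 0.190 and 0 CPM in MEF. With 2 counts in MEF, the ratio was 251-fold higher in CFAE+8+MSC (95% counting interval 69.2 to 2081), 365-fold higher in CFAE+6 (101 to 3023) and 57.0-fold higher in CFAE+8 (15.5 to 476). It was 4.42-fold higher in CFAE+8+MSC than in CFAE+8 (log2 change 2.14 ± 0.19, adjusted p = 1.91e-10) and 6.41-fold higher in CFAE+6 (2.68 ± 0.18, adjusted p = 1.07e-12). Its lower level in CFAE+8+MSC than in CFAE+6 (-0.54 ± 0.14, adjusted p = 0.0129) was no longer called without CFAE+8+MSC replicate 1 (0.217) or CFAE+6 replicate 2 (0.135). Col23a1, another transmembrane collagen, had 50.3 and 56.2 CPM in CFAE+8+MSC, 60.4 and 56.2 CPM in CFAE+6 and 30.4 and 24.98 CPM in CFAE+8, against 6.93 and 6.40 CPM in MEF. Its changes were 2.998 ± 0.13 in CFAE+8+MSC, 3.13 ± 0.13 in CFAE+6 and 2.06 ± 0.14 in CFAE+8 against MEF, and 0.94 ± 0.10 in CFAE+8+MSC and 1.07 ± 0.10 in CFAE+6 against CFAE+8 (adjusted p at most 8.44e-09). Col25a1, known for its binding to amyloid plaques in brain, rose as well. It had 7.44 and 7.31 CPM in CFAE+8+MSC, 7.83 and 8.97 CPM in CFAE+6 and 9.46 and 8.98 CPM in CFAE+8, against 1.71 and 2.84 CPM in MEF. Its changes against MEF were 1.69 ± 0.25 in CFAE+8+MSC, 1.88 ± 0.25 in CFAE+6 and 2.02 ± 0.24 in CFAE+8 (adjusted p at most 9.34e-07). Among the cocktails no change passed, and the 95% interval was -0.72 to 0.08 in CFAE+8+MSC against CFAE+8 and -0.52 to 0.26 in CFAE+6 against CFAE+8.

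Col17a1 was the transmembrane collagen that fell. It anchors skin epithelium to its basement membrane and was near the limit of detection, with 1 and 0 counts in CFAE+8+MSC, 4 and 1 in CFAE+6 and 6 and 4 in CFAE+8, against 22 and 13 in MEF. The ratio to MEF in CFAE+8+MSC was 36.9-fold lower (95% counting interval 6.20 to 1499). The gene entered the test through MEF, so its changes against MEF are given as a description. The change in CFAE+8 against MEF was -1.94 ± 0.62. Its call was lost without CFAE+8 replicate 2 (log2 change -1.67) or MEF replicate 1 (-1.48).

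Of the last 3 genes, Col7a1 and Col26a1 rose and Col28a1 fell. Col7a1 forms the anchoring fibrils that fasten the epidermis to the dermis. It had 538 and 614 CPM in CFAE+8+MSC, 426 and 443 CPM in CFAE+6 and 353 and 341 CPM in CFAE+8, against 144 and 158 CPM in MEF. No 2 media overlapped, the changes against MEF were 1.93 ± 0.06 in CFAE+8+MSC, 1.52 ± 0.06 in CFAE+6 and 1.20 ± 0.06 in CFAE+8 (adjusted p at most 4.17e-17), and CFAE+8+MSC was above CFAE+8 by 0.73 ± 0.05 (adjusted p = 8.41e-12). Col26a1, described in testis and ovary, had 149.6 and 166 CPM in CFAE+8+MSC, 171 and 185 CPM in CFAE+6 and 169 and 165 CPM in CFAE+8, against 0.474 and 1.01 CPM in MEF. Its MEF libraries held 5 and 11 counts. On the log2 scale the 95% interval of the change against MEF was 7.43 to 8.02 in CFAE+8+MSC, 7.61 to 8.19 in CFAE+6 and 7.51 to 8.10 in CFAE+8, given as a description because the gene entered the test through the cocktails. Among the cocktails no change passed in the full fit, and the 95% interval of the log2 change was -0.21 to 0.05 in CFAE+8+MSC against CFAE+8 and -0.03 to 0.22 in CFAE+6 against CFAE+8. The interval in CFAE+8+MSC against CFAE+6 was -0.30 to -0.05 (adjusted p = 0.0696), which passed with no filter on low counts (0.0484), without CFAE+6 replicate 1 (0.0359) and without CFAE+8+MSC replicate 2 (0.0311). Col28a1, found around peripheral nerves, had 0.865 and 1.63 CPM in CFAE+8+MSC, 0.528 and 0.513 CPM in CFAE+6 and 0.426 and 0.678 CPM in CFAE+8, against 7.402 and 8.87 CPM in MEF. It fell, with changes of -2.72 ± 0.34 in CFAE+8+MSC, -3.97 ± 0.39 in CFAE+6 and -3.88 ± 0.39 in CFAE+8. These are given as a description because the gene entered the test through MEF.

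Chains of 1 molecule kept their ratio in some types and not in others. Per length, Col4a1 over Col4a2 was 1.06 ± 0.0153 in CFAE+8+MSC, 1.09 ± 0.0196 in CFAE+6 and 0.997 ± 0.0456 in CFAE+8, against 1.05 ± 0.00623 in MEF (SD, n = 2 each), while the level of both moved several-fold. Col6a1 over Col6a2 was 3.14 ± 0.0508, 2.95 ± 0.0100 and 3.30 ± 0.00995 in those cocktails, against 3.03 ± 0.0339 in MEF. Col6a3 over Col6a2 was below its MEF value of 0.837 ± 0.0230 in each, at 0.663 ± 0.00687 in CFAE+8+MSC, 0.405 ± 0.0157 in CFAE+6 and 0.553 ± 0.00667 in CFAE+8. Col1a1 over Col1a2, whose chains join in type I collagen, was 5.72 ± 0.179 in CFAE+8+MSC, 4.69 ± 0.209 in CFAE+6 and 3.80 ± 0.0822 in CFAE+8, against 3.67 ± 0.0469 in MEF. The libraries of CFAE+8+MSC and of CFAE+6 lay apart from those of CFAE+8 and MEF. Col5a1 over Col5a2 was 2.23 ± 0.0195, 2.16 ± 0.00458 and 2.33 ± 0.0181 in the cocktails, against 0.988 ± 0.0172 in MEF. Between types, Col6a1 over Col1a1 was 1.40 ± 0.000329 in CFAE+8+MSC, 1.79 ± 0.0382 in CFAE+6 and 1.38 ± 0.0242 in CFAE+8, against 0.116 ± 0.000100 in MEF, and Col3a1 over Col1a1 was 0.258 ± 0.00353, 0.371 ± 0.0188 and 0.360 ± 0.00679, against 0.130 ± 0.00234. With 2 libraries against 2, an exact permutation test of such a ratio cannot give a two-sided p below 0.333, so the ratios are given as values. A ratio shows unequal change and not which chain moved. Its size depends on the length of all exon bases used as divisor, while its relative change between media does not.

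**Figure D4:**
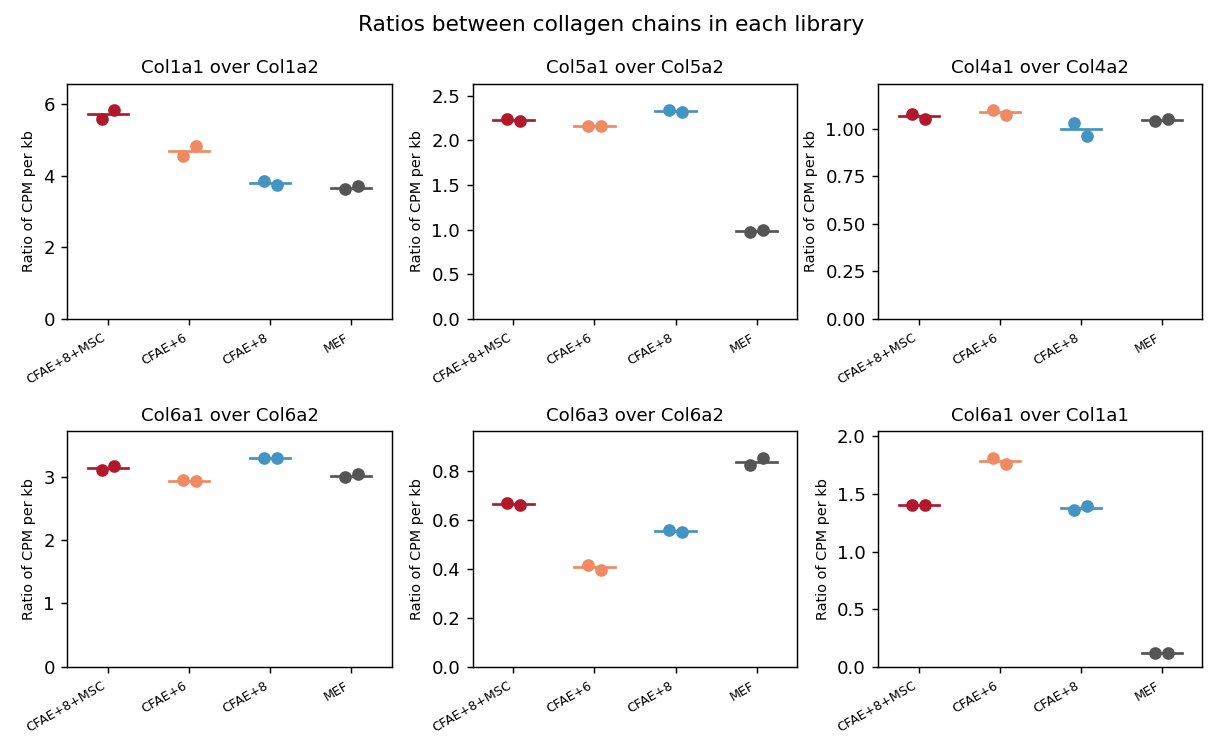
Ratio of the per-length levels (CPM per kb) of 6 pairs of collagen genes in the 4 media; dots are libraries and lines the mean of 2. Col4a1 over Col4a2 lies between 0.997 and 1.09 on average in all media, while Col5a1 over Col5a2 is near 1 in MEF only. On this per-length scale Col6a1 over Col1a1 is above 1 in the cocktails only. In CPM not divided by length, Col6a1 averages above Col1a1 only in CFAE+6.

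A-83-01 and E-616452 were compared through CFAE+6 against CFAE+8, whose doses the labels do not give, so compound and dose cannot be told apart. The 22 genes called included 8 with a log2 change of at least 1. Of these, 7 were higher in CFAE+6 (Col4a1, Col4a2, Col13a1, Col15a1, Col20a1, Col23a1 and Col6a6), where 4.47% of all genes tested were, and Col16a1 was lower, where 1.11% were. The Col6a6 call (3.16 ± 0.73, adjusted p = 0.00142) was lost without CFAE+6 replicate 1 (0.0823). Col1a1 and Col1a2 were lower in CFAE+6 by smaller amounts (-0.21 ± 0.03 and -0.51 ± 0.03, adjusted p at most 2.53e-05). Col11a1 was lower as well (-0.28 ± 0.07, adjusted p = 0.00491) and Col11a2 higher (0.54 ± 0.18, adjusted p = 0.0222). The Col11a1 call was lost without CFAE+6 replicate 2 (0.117) or CFAE+8 replicate 1 (0.0736), and the Col11a2 call without CFAE+6 replicate 2 (0.144) or CFAE+8 replicate 2 (0.156). Col8a1 (0.95 ± 0.10), Col5a3 (0.42 ± 0.07), Col7a1 (0.32 ± 0.05), Col6a1 (0.17 ± 0.03) and Col6a2 (0.33 ± 0.04) were higher in CFAE+6 (adjusted p at most 0.000571). For Col5a2, not called, the 95% interval was -0.08 to 0.09 on the log2 scale. Col5a1 lay just short of the threshold, with an interval of -0.19 to -0.02 (adjusted p = 0.0539), and was called as lower with no filter (0.013), with only both media fitted (0.0243) and without CFAE+6 replicate 2 (0.0388).

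MSC2530818 added to A-83-01 changed 9 collagen genes by at least 1 on the log2 scale. Of these, 8 were higher than in CFAE+8 (Col4a1, Col4a2, Col5a3, Col6a5, Col6a6, Col8a1, Col13a1 and Col19a1), where 4.78% of all genes tested were, and Col16a1 was lower, where 1.62% were. The calls of Col6a5 and Col19a1 among them depended on single libraries, as given above. The abundant fibrillar genes moved by less. Col1a1 was at a change of 0.09 ± 0.03 (adjusted p = 0.0468), a call lost without either CFAE+8 library (0.0897 and 0.267) or CFAE+8+MSC replicate 2 (0.39). Col1a2 (-0.50 ± 0.03, adjusted p = 2.15e-13) and Col3a1 (-0.39 ± 0.03, adjusted p = 1.83e-10) fell. The Col5a2 rise (0.17 ± 0.04, adjusted p = 0.00275) was lost without CFAE+8+MSC replicate 2 (0.106), and Col11a1, lower at -0.22 ± 0.07 (adjusted p = 0.0271), was not called without CFAE+8 replicate 1 (0.212) or CFAE+8+MSC replicate 2 (0.182). Col27a1 rose by 0.37 ± 0.06 (adjusted p = 8.81e-06). Set against CFAE+6 instead, CFAE+8+MSC had more Col1a1 (0.30 ± 0.03), Col12a1 (0.41 ± 0.04), Col5a1 (0.21 ± 0.04), Col4a1 (0.30 ± 0.04), Col4a2 (0.33 ± 0.05) and Col7a1 (0.41 ± 0.05), with adjusted p at most 0.00062. It had less Col18a1 (-0.20 ± 0.04, adjusted p = 0.00135).

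Most genes for enzymes that modify and crosslink collagen were lower with the cocktails. The counts of the lists below stand beside 30.8% higher and 31.3% lower over all genes tested in CFAE+8 against MEF, with a median of 0.012. The shares against MEF were 31.9% and 32.2% in CFAE+8+MSC and 31.6% and 31.5% in CFAE+6. Lox, which crosslinks collagen and elastin, averaged 23.2 ± 0.0752 CPM in CFAE+8 and 4248 ± 123 CPM in MEF (SD, n = 2 each; log2 change -7.52 ± 0.07, adjusted p = 2.12e-35). All 5 crosslinking genes fell in CFAE+8, with a median change of -2.17, among them Loxl1 (-2.19 ± 0.05), Loxl3 (-2.17 ± 0.06) and Loxl4 (-1.28 ± 0.07). In CFAE+6 4 fell and 1 did not pass, and in CFAE+8+MSC 4 fell and 1 rose. Against CFAE+8, Loxl2 (0.60 ± 0.05) and Lox (0.80 ± 0.08) were higher and Loxl1 lower (-0.31 ± 0.05) in CFAE+8+MSC. Of 20 genes of collagen modification and folding, 15 fell, 1 rose and 4 did not pass in CFAE+8, with a median of -0.55. Among them P3h4, part of a complex that acts on collagen lysines, fell (-1.43 ± 0.06, adjusted p = 2.2e-18). P4ha2, a subunit of the prolyl hydroxylase that stabilises the helix, had 30.1 ± 0.464 CPM in CFAE+8 and 98.6 ± 5.07 CPM in MEF (-1.71 ± 0.08, adjusted p = 1.84e-17), and Plod3, a lysyl hydroxylase (-1.003 ± 0.05), and the chaperone gene Fkbp10 (-0.96 ± 0.05) fell as well. In CFAE+8+MSC and CFAE+6 14 of the 20 fell. Plod2 (0.41 ± 0.05) and P4ha2 (0.60 ± 0.09) were higher and P4ha3 lower (-0.52 ± 0.07) in CFAE+8+MSC than in CFAE+8.

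Procollagen processing genes divided. Adamts14, which removes the amino-terminal propeptide, averaged 197 ± 5.66 CPM in CFAE+8 and 28.4 ± 1.66 CPM in MEF (2.79 ± 0.07, adjusted p = 3.22e-24). Sparc, a collagen-binding protein gene, averaged 1436 ± 5.74 CPM in CFAE+8 and 3631 ± 5.58 CPM in MEF (-1.34 ± 0.03). Tll1, a carboxy-terminal protease, averaged 4.38 ± 0.320 CPM in CFAE+8 and 85.4 ± 4.50 CPM in MEF (-4.29 ± 0.13), and Pcolce, an enhancer of such proteases, was at -1.04 ± 0.04 (adjusted p = 1.3e-18). Of the 9 tested, 3 rose and 5 fell in CFAE+8. In CFAE+8+MSC against CFAE+8, Pcolce fell further, to 189 ± 4.63 CPM in CFAE+8+MSC, against 439 ± 8.36 CPM in CFAE+8 (-1.21 ± 0.05, adjusted p = 1.65e-18), Adamts14 was lower (-0.68 ± 0.06), and Adamts2, another amino-terminal protease, was at 0.60 ± 0.05 (adjusted p = 3.65e-10).

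Most genes for proteins that bind collagen fibrils were lower as well. Of 14 fibril partners, 11 fell and 2 rose in CFAE+8, with a median of -3.21, 11 fell and 3 rose in CFAE+6, and 10 fell and 2 rose in CFAE+8+MSC. The small proteoglycan gene Bgn averaged 182 ± 5.21 CPM in CFAE+8 and 3508 ± 41.6 CPM in MEF (-4.27 ± 0.05, adjusted p = 6.01e-33). Fbln2 (-3.34 ± 0.04) and the fibronectin gene Fn1 (-2.16 ± 0.03), with levels given above, fell as well. Postn, periostin, averaged 32.2 ± 1.48 CPM in CFAE+8 and 352 ± 2.17 CPM in MEF (-3.45 ± 0.06). With MSC2530818 it was at 341 ± 3.37 CPM (3.40 ± 0.06 against CFAE+8, adjusted p = 1.25e-26), and Fbln2 (0.70 ± 0.04) and Tgfbi (0.49 ± 0.04) were higher in CFAE+8+MSC too. Of 16 basement membrane partners, 10 fell and 2 rose in CFAE+8, with a median of -0.75. The laminin chains Lama5 (-4.09 ± 0.09), Lamc1 (-1.50 ± 0.05) and Lama4 (-1.71 ± 0.06) fell, and so did Nid1 (-1.15 ± 0.04), which links laminin to type IV collagen. Like Col4a1, Nid1 was higher in CFAE+8+MSC than in CFAE+8, at 906 ± 3.37 CPM in CFAE+8+MSC and 504 ± 1.26 CPM in CFAE+8 (0.84 ± 0.04, adjusted p = 1.94e-16), as was Lama1 (0.77 ± 0.07), while Hspg2, perlecan, was lower (-0.26 ± 0.04). Against CFAE+8, 8 of the 16 were higher and 4 lower in CFAE+8+MSC, beside 15.6% and 13.8% of all genes tested. In CFAE+6 against CFAE+8, 3 were higher and 6 lower, beside 14.3% and 12.3%, whereas Col4a1 and Col4a2 were higher there. In CFAE+8+MSC against CFAE+6, 10 of the 16 rose and none fell, beside 6.21% and 4.27% of all genes tested.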

How the data were processed

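RNA of mouse embryonic fibroblasts at day 4 was sequenced from libraries made with a kit that does not mark strand, per the labels' protocols. The deposited table holds raw counts per gene and library. It also holds a gene length in bases, as deposited by the authors. The submitters' processing notes name featureCounts, Subread, DESeq2 and mm10, without versions or roles, and nothing there states the aligner or the annotation release. All 8 per-sample columns were used, with groups from the labels.

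Counts were filtered with filterByExpr, scaled with TMM factors and tested with edgeR 4.0.16 (limma 3.58.1, R 4.3.3), quasi-likelihood test, 1 mean per medium, 4 residual degrees of freedom, common biological coefficient of variation 0.0445. All 4 media shared 1 estimate of the spread, and the Benjamini-Hochberg adjustment ran over 15470 genes in each of 6 comparisons. The spread of collagen genes between the libraries of a medium was unequal. Chi-square per degree of freedom, about 1 for counting error alone, was 14.0 in CFAE+8+MSC, 9.95 in CFAE+6, 1.63 in CFAE+8 and 7.75 in MEF. The shared estimate may thus understate the error of small changes in the media with more spread. Intervals of log2 changes are 95% intervals from the fit. Ratios with under 4 counts in a group have exact counting intervals. A count of 0 allows up to 3 counts per library, or 0.254 to 0.285 CPM at depths of 10958430 to 11913143 counts. The code was tested on simulated counts with known changes.

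Collagen genes were named with values where they averaged at least 10 CPM in a medium or were called with a log2 change of at least 2, and the rest were counted. Of each list of matrix genes, the genes with the smallest adjusted p were named, up to 4 in CFAE+8 against MEF and up to 3 in CFAE+8+MSC against CFAE+8. Members and lists were chosen with earlier results of these data known. For 42 of 44 genes, all but Col11a2 and Col17a1, the deposited length equals the exon bases in GENCODE M21 on GRCm38. Promoters came from RefSeq on GRCm38.p6. The alternatives were DESeq2 1.42.0, RLE and upper-quartile scaling, library sizes without collagen genes, no filter, fits of only the media compared, a replicate block and leaving out each library. Figures were drawn with Python 3.11.15, pandas 2.3.3 and matplotlib 3.10.9.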

Additional observations from a re-analysis of the deposited data

How the results depend on the processing

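No collagen call reversed under any alternative. Counts of collagen genes against MEF moved by at most 2 under all alternatives: 16 higher and 17 to 18 lower in CFAE+8+MSC when 1 library was left out (17 and 18 in the full fit), 17 and 18 in CFAE+6 (17 and 19) and 16 and 20 in CFAE+8 (16 and 21). In CFAE+8+MSC against CFAE+8 the count higher, 24, was 17 to 25 when 1 library was left out and 19 with DESeq2, and the count lower, 4, was 3 to 4. In CFAE+6 against CFAE+8 the counts were 14 to 15 higher (15 in the full fit) and 5 to 7 lower (7). In CFAE+8+MSC against CFAE+6, 10 to 12 were higher (11) and 3 to 6 lower (5), with 3 without CFAE+8+MSC replicate 1 and 3 without CFAE+6 replicate 2. Where a medium was left with 1 library, that library was assumed to vary like those of the other media. DESeq2 lost 12 collagen calls in all, among them Col1a1 in CFAE+8+MSC against CFAE+8 (adjusted p = 0.109) and Col13a1 in CFAE+8+MSC against CFAE+6 (0.0848). Upper-quartile scaling lost 3 calls, and moved the median of all genes by at most 0.0426 on the log2 scale. The cause of each of these was not tested.

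The labels do not say that a replicate number marks a shared culture or day. The deviations of libraries with the same number correlated across 15470 genes at -0.021 to 0.0512, so the numbers were not taken to pair the samples. With the replicate block, 25 genes were higher in CFAE+8+MSC than in CFAE+8, 8 lower in CFAE+6 than in CFAE+8, 12 higher in CFAE+8+MSC than in CFAE+6 and 18 lower in CFAE+6 than in MEF, and the other 8 counts equalled those without the block. Col5a1 was called with the block in CFAE+6 against CFAE+8 (adjusted p = 0.0285) and in CFAE+8+MSC against CFAE+8 (0.0299). With 2 libraries a medium, single libraries decided calls on genes of few counts, such as Col17a1, Col19a1 and Col20a1, and small changes of abundant genes, such as Col1a1 and Col6a1 in CFAE+8+MSC against CFAE+8.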

Other observations

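Collagen receptors, collagen-degrading enzymes and regulators of collagen genes were measured as well. Of 9 receptor genes tested, 7 fell and 2 rose in CFAE+8+MSC against MEF, 7 fell and 2 rose in CFAE+6, and 4 fell and 3 rose in CFAE+8. Over all genes tested, 32.2% fell and 31.9% rose in CFAE+8+MSC, 31.5% and 31.6% in CFAE+6, and 31.3% and 30.8% in CFAE+8, so the CFAE+8 counts of the receptor list lay near the background. The collagen-binding integrin chains went apart in edgeR's quasi-likelihood test. Itga11, which pairs with the chain encoded by Itgb1 and binds fibrillar collagen, averaged 13.8 ± 0.177 CPM in CFAE+8 and 149.6 ± 7.65 CPM in MEF (SD, n = 2 each; log2 change -3.43 ± 0.09, adjusted p = 9.88e-24). Itga1, which binds type IV collagen, averaged 85.7 ± 1.29 CPM in CFAE+8 and 23.7 ± 4.85 CPM in MEF (1.85 ± 0.09, adjusted p = 2.45e-17). With MSC2530818 Itga1 was at 171 ± 4.94 CPM (0.999 ± 0.07 against CFAE+8). The receptor kinase gene Ddr1 (-2.27 ± 0.08) and Itgb1 (-0.65 ± 0.04) fell in CFAE+8 against MEF, and Mrc2, which takes up collagen fragments, was lower in CFAE+8+MSC than in CFAE+8 (-0.65 ± 0.04), while Itgb1 was higher (0.17 ± 0.04).

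Of 16 degradation genes tested, 9 rose and 7 fell in CFAE+8+MSC against MEF, 7 rose and 7 fell in CFAE+6, and 7 rose and 5 fell in CFAE+8. The CFAE+8 counts lay near the shares over all genes. The inhibitor genes Timp1 (-1.20 ± 0.05), Timp2 (-0.89 ± 0.04) and Timp3 (-3.89 ± 0.07) all fell in CFAE+8 against MEF, while the metalloproteinase gene Mmp11 rose (3.38 ± 0.05, adjusted p at most 3.58e-18 for the 4 genes). Timp3 averaged 176 ± 0.312 CPM in CFAE+8+MSC and 43.2 ± 2.00 CPM in CFAE+8 (2.02 ± 0.07, adjusted p = 6.7e-20), whereas Timp1 was lower in CFAE+8+MSC (-1.37 ± 0.06) and the collagenase gene Mmp13 higher (1.41 ± 0.07).

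Of 25 regulators, 14 fell and 4 rose in CFAE+8+MSC against MEF, 17 fell and 5 rose in CFAE+6, and 15 fell and 4 rose in CFAE+8. The shares over all genes tested are those given with the receptor list. Ctgf, a gene induced by TGF-beta and by YAP, averaged 8.16 ± 0.0370 CPM in CFAE+8 and 602 ± 1.46 CPM in MEF (-6.21 ± 0.08, adjusted p = 9.52e-32). It was higher with MSC2530818, at 48.4 ± 1.73 CPM in CFAE+8+MSC (2.57 ± 0.09 against CFAE+8, adjusted p = 4.37e-19). The ligand gene Tgfb2 rose in CFAE+8 against MEF (1.70 ± 0.05) and Tgfb3 fell (-2.12 ± 0.06), and both were higher in CFAE+8+MSC than in CFAE+8 (1.14 ± 0.05 and 1.33 ± 0.06). The receptor gene Tgfbr2 fell in CFAE+8 (-1.09 ± 0.05). These lists were chosen with earlier results of these data known, and the comparisons with MEF share the MEF libraries.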
